A study of Mus musculus with 8 samples.

Results

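The 10 genes described here, of 19382 in the series, are 3 metallothioneins, the zinc-sensing transcription factor Mtf1, and 6 genes that move zinc or copper across membranes or hand copper on. They were taken by gene symbol (Mt1, Mt2, Mt3, Mtf1, Slc30a1, Slc39a10, Slc39a14, Slc31a1, Atp7a and Ccs) from the 2 expression tables of the series, and all 10 were listed in each, among 18645 genes for activated hepatic stellate cells (AHSC) and 17408 for bone marrow-derived macrophages (BMDM). The AHSC came from livers of C57BL/6 mice by density-gradient centrifugation and were exposed to 0.03 µM auranofin, a gold compound used against rheumatoid arthritis, for 12 h, or left without it. The BMDM were grown with M-CSF for 7 days from bone marrow of male C57BL/6 mice aged 8 weeks. All 4 BMDM libraries, controls included, had received LPS at 100 ng/mL and 1 mM ATP. In the inflammasome assays of the study, LPS priming lasted 4 h before ATP was added. Of the 4 libraries, 2 also received auranofin for 1 h, at 0.1 µM by the labels and 0.3 µM by the figure legend of the study. Each of the 4 groups had 2 libraries, and no source used here says whether these came from separate animals or cultures, so the p-values measure the spread between libraries, which may be technical.

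Metallothioneins are small cysteine-rich proteins that bind zinc, copper and other soft metals, gold among them. MTF-1, the product of Mtf1, senses free zinc and binds metal response elements in the promoters of metallothionein genes and of Slc30a1, which encodes the zinc exporter ZnT1 of the plasma membrane. SLC39A10 and SLC39A14 (ZIP10 and ZIP14) bring zinc into the cytosol, SLC31A1 (CTR1) brings in copper, ATP7A pumps copper out or into the secretory pathway, and CCS loads copper onto superoxide dismutase 1.

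Mt1, Mt2 and Mt3 lie next to each other on chromosome 8 of mm10, at 94178883 to 94180327, 94172618 to 94173567 and 94152607 to 94154148. In the RefSeq promoter windows (GRCm38.p6, the assembly of mm10) their start sites were 6.47 kb (Mt2 to Mt1) and 20.0 kb (Mt3 to Mt2) apart. Sequence from the promoters of Mt1, Mt2 and Slc30a1 is shown because these are the members whose auranofin libraries lay furthest above the controls in AHSC among those tested. For Mt2 it is the 250 bases before the start. The RefSeq genes of Mt1 and Slc30a1 begin 206 and 84 bases before the start that their windows use, so for these only 30 bases around the match upstream of that start are given. The capitals mark the metal response element core, searched as TGCACNC or TGCGCNC on both strands, so that a match on the other strand reads as its reverse complement.
Mt1, chr8:94179055-94179084, plus strand: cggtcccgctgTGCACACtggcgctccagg
Mt2, chr8:94172368-94172617, plus strand: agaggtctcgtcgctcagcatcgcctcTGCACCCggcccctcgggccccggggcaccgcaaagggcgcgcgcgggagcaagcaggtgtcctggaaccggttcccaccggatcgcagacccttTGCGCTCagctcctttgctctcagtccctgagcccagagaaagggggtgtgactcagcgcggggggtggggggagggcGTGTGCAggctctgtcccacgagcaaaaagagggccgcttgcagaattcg
Slc30a1, chr1:191906727-191906756, plus strand: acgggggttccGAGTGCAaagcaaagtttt
Over the whole windows, which run from 250 bases before to 50 bases after the start, Mt1 held 3 matches, at positions -23, 3 and 21 from that start. Mt2 held 4, at -223, -128, -50 and 5, and Slc30a1 held 2, at -43 and 31. Mt3 held 1 match, at 28, and Atp7a held 2, at -132 and -120. Windows were listed for 8 of the 10 members, and 5 of these 8 had at least 1 match, as did 25.7% of all 32851 promoter windows. At least 3 matches, as in Mt1 and Mt2, were found in 1.97% of all windows. The core of the antioxidant response element, searched as TGACNNNGC on both strands, occurred in 2 of the 8 members, Mt2 at -79 and Slc30a1 at -82, and in 12.4% of all windows. These are matches of letters, and binding was not measured. Starts of transcription were not measured either, so the positions hold for the annotated starts, and matches outside the windows were not counted. The main start of Mt1 may differ from the one used, so its window may miss matches nearer to that start.

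**Figure D1:**
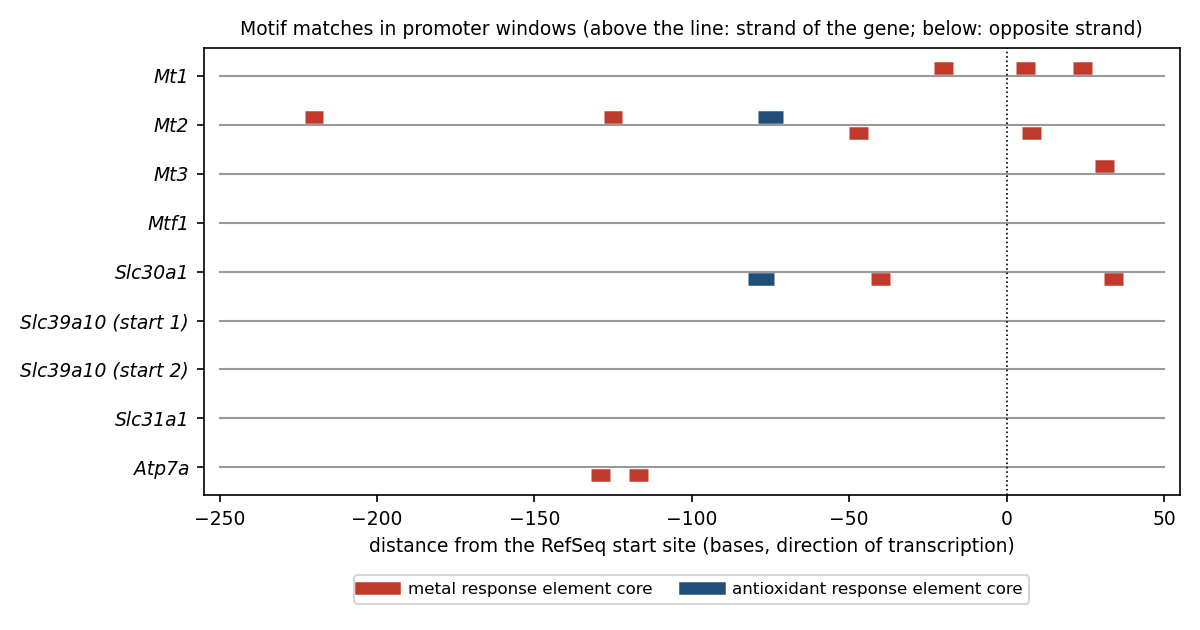
Positions of motif matches in the promoter windows of 8 members, in bases from the RefSeq start site (Slc39a10 has 2 annotated starts). Red bars are the metal response element core and blue bars the antioxidant response element core. Mt2 carries 4 red bars and Mt1 carries 3, while Mtf1, Slc31a1 and both starts of Slc39a10 carry none.

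The tables hold FPKM, that is, fragments scaled to transcript length and library size, without counts. From the steps that single fragments leave in low values, the libraries were estimated to hold between 27500000 and 39400000 fragments. At this depth, and leaving out Mt3, the 7 members for which the tables list a single transcript had between 382 and 5447 estimated fragments in an AHSC library and between 194 and 3369 in a BMDM library, a counting error of at most 5.12% and 7.18%. Macrophage markers were abundant in the AHSC libraries beside those of stellate cells. The 12 macrophage markers summed to between 7593 and 7758 FPKM in each library and the 12 stellate or myofibroblast markers to between 4087 and 4755 FPKM. Hepatocyte and lymphocyte markers were near 0, with sums of at most 2.15 and 0.135 FPKM. In BMDM the macrophage markers summed to between 7351 and 8225 FPKM and the 11 stellate or myofibroblast markers in the table to at most 16.5 FPKM. The neutrophil markers summed to 168 and 175 FPKM in the BMDM controls and to 229 and 232 FPKM with auranofin. S100a8 and S100a9 made up most of these sums and were higher in both auranofin libraries. Camp overlapped, with 8.78 and 7.08 FPKM in the controls and 8.59 and 8.43 FPKM with auranofin. Mpo, Elane and Ly6g stayed under 1 FPKM in every library, and of these only Ly6g was higher in both auranofin libraries. The part of the neutrophil markers in the BMDM results was not tested. In such bulk RNA, fewer cells of a type and less RNA per cell cannot be told apart.

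Without auranofin, Mt1 was the member with the highest level per length in both cell types. In AHSC it had 122 ± 8.29 FPKM (SD, n = 2). It was followed by Ccs with 24.8 ± 0.366 FPKM (SD, n = 2), Mt2 with 24.6 ± 1.15 FPKM (SD, n = 2), Slc31a1 with 24.3 ± 0.819 FPKM (SD, n = 2) and Slc39a10 with 22.7 ± 0.0204 FPKM (SD, n = 2). Ccs, Mt2 and Slc31a1 lay within their spread of each other. Below these came Atp7a with 9.57 FPKM, Slc30a1 with 8.31 FPKM, Mtf1 with 3.93 FPKM and Slc39a14 with 3.89 FPKM, of which the last 2 did not differ beyond their spread. Mt3, which is best known from the brain, was the lowest member with 0.251 ± 0.0207 FPKM (SD, n = 2).
In the LPS/ATP-treated BMDM, normalized separately, the control order was Mt1 with 61.5 ± 1.35 FPKM (SD, n = 2), Mt2 with 33.9 ± 4.10 FPKM (SD, n = 2) and Slc31a1 with 20.5 ± 0.734 FPKM (SD, n = 2). Slc39a14 had 10.8 FPKM, Slc30a1 9.06 FPKM, Ccs 7.39 FPKM, Atp7a 4.82 FPKM, Mtf1 4.12 FPKM, Slc39a10 2.68 FPKM and Mt3 0.154 FPKM. The libraries of Slc39a14 were each above those of Slc30a1, and those of Atp7a each above those of Mtf1. The importer order differed between the tables, with Slc39a10 above Slc39a14 in AHSC and below it in BMDM. The Mt1 level was 4.86 and 5.01 times the Mt2 level in the AHSC control libraries and 1.95 and 1.69 times in the BMDM control libraries. No test was made across the tables.

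**Figure D2:**
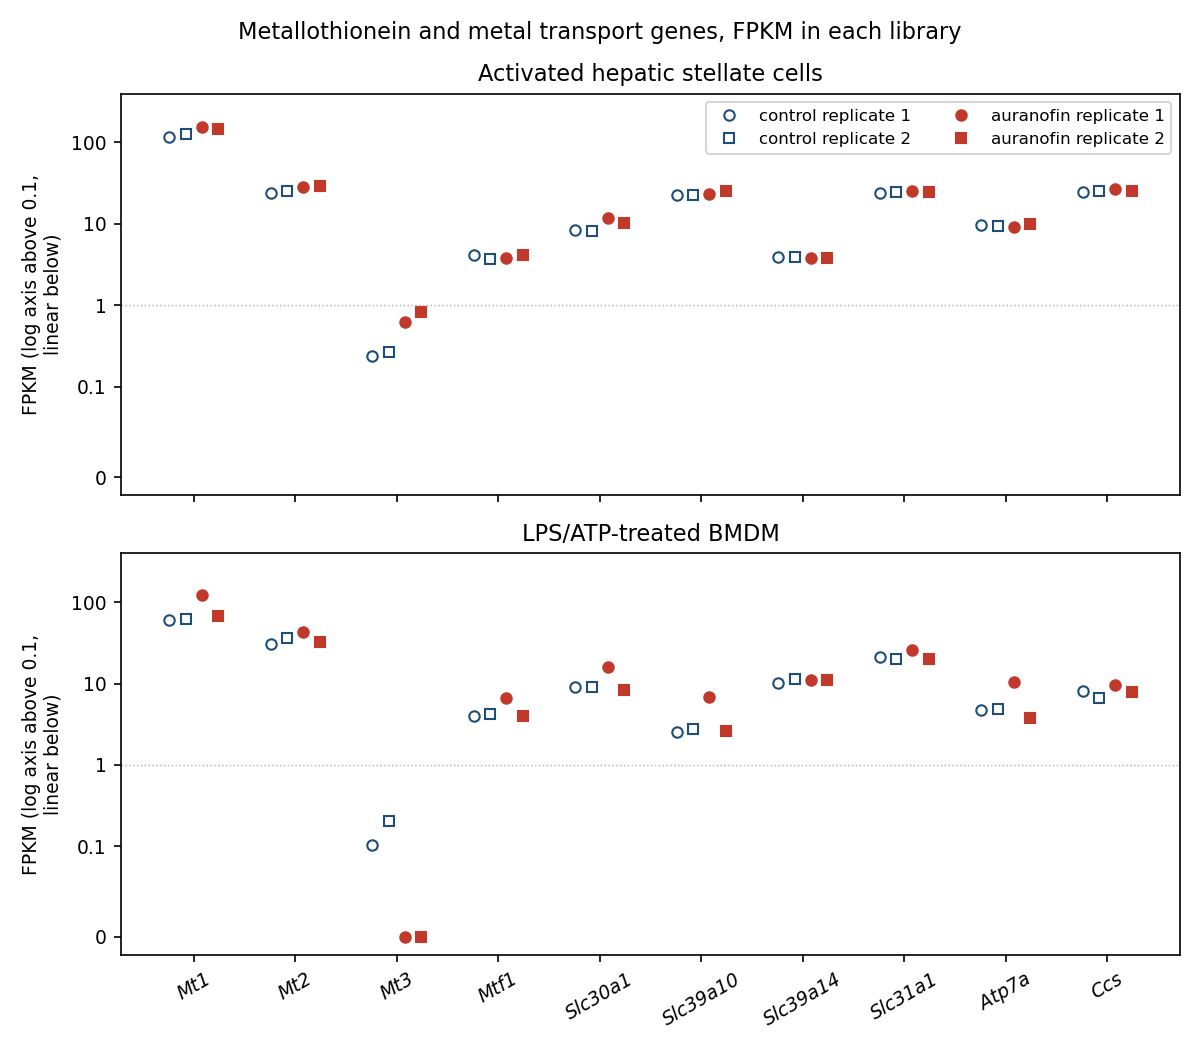
FPKM of the 10 members in each library of AHSC (top) and BMDM (bottom), on an axis that is logarithmic above 0.1 and linear below. Open symbols are control and filled symbols auranofin libraries, circles are replicate 1 and squares replicate 2, and the dotted line marks the 1 FPKM minimum for a test. Mt1 is highest in every library and Mt3 lowest, and in BMDM the circles of auranofin replicate 1 stand above the other libraries in several genes.

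To determine how auranofin bore on these genes in AHSC, the groups were compared with limma on log2(FPKM + 1) over the 12149 genes that averaged 1 FPKM or more, a minimum that 9 of the 10 members passed. None of the 9 had an adjusted p under 0.05 by limma with Benjamini-Hochberg adjustment, a call that 2.33% of all genes tested received. Mt1, Mt2 and Slc30a1 came nearest, with means 23.6%, 17.1% and 32.0% above the controls. These 3 had an unadjusted p under 0.05, all higher with auranofin, as did 17.8% of all genes tested in either direction and 8.57% in the higher one. A second rule, 1.5-fold with an unadjusted p under 0.05, took in none of the 9 and 0.576% of all genes. With 2 libraries a group the smallest two-sided p of an exact permutation test is 0.333, and each of these 3 genes had it.

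Mt1 stood at 116 and 127 FPKM with control and at 154 and 147 FPKM with auranofin. Both auranofin libraries lay above both controls, by 26.6% and 20.7% of the control mean. The log2 fold change of Mt1 was 0.30 (95% confidence interval 0.17 to 0.44, adjusted p = 0.0584 from limma). Mt2 had 23.8 and 25.4 FPKM with control and 28.6 and 29.0 FPKM with auranofin. Its auranofin libraries were close to each other and above both controls, with a log2 fold change of 0.22 (95% confidence interval 0.11 to 0.33, adjusted p = 0.0776 from limma). The Mt1 level was 5.38 and 5.06 times the Mt2 level in the auranofin libraries. Mt3 had 0.236 and 0.266 FPKM with control and 0.618 and 0.835 FPKM with auranofin. These values stand for about 4 and 5 fragments against about 10 and 18, and the groups did not overlap. The ratio of the summed fragments, scaled to depth, was 2.90 with a 95% interval of 1.33 to 6.98 that covers counting error only. Mt3 was below the minimum for a test. Without a minimum its adjusted p was 0.136 from limma.

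The zinc exporter gene Slc30a1 had 8.38 and 8.24 FPKM with control and 11.7 and 10.3 FPKM with auranofin. Both auranofin libraries were above both controls, and the auranofin libraries differed more from each other than the controls did. The log2 fold change of Slc30a1 was 0.36 (95% confidence interval 0.20 to 0.52, adjusted p = 0.0599 from limma). The adjusted p of Mt1 and Slc30a1 was 0.0455 and 0.0472 with a minimum of 5 FPKM, which leaves fewer genes to adjust over, so whether they pass depends on that minimum. Single libraries also decided it. Mt1 and Slc30a1 passed without control replicate 1, Mt1 and Mt2 without control replicate 2, Slc30a1 without auranofin replicate 2, and none of the members without auranofin replicate 1. The regulator itself did not stand apart. Mtf1 had 4.11 and 3.75 FPKM with control and 3.82 and 4.10 FPKM with auranofin, overlapping groups with a log2 fold change of 0.01 (95% confidence interval -0.16 to 0.18).

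The importers and the copper genes differed little. Slc39a10 had 22.7 and 22.7 FPKM with control and 23.6 and 25.2 FPKM with auranofin, a log2 fold change of 0.10 (95% confidence interval -0.01 to 0.21). Slc39a14 had 3.87 and 3.91 FPKM with control and 3.82 and 3.82 FPKM with auranofin. For Slc39a14 the log2 fold change was -0.02, with a 95% confidence interval of -0.16 to 0.12. The copper importer gene Slc31a1 had 23.7 and 24.9 FPKM with control and 25.1 and 24.9 FPKM with auranofin, and its log2 fold change of 0.04 had a 95% confidence interval of -0.06 to 0.14. Atp7a had 9.70 and 9.44 FPKM with control and 9.20 and 9.91 FPKM with auranofin, so its groups overlapped (log2 fold change -0.00, 95% confidence interval -0.13 to 0.13). Ccs had 24.6 and 25.1 FPKM with control and 26.5 and 25.2 FPKM with auranofin, a log2 fold change of 0.06 (95% confidence interval -0.05 to 0.16). In 7 of the 9 members tested the groups did not overlap, 6 of them higher and 1 lower with auranofin, beside 50.1% of all genes tested (26.2% higher and 23.9% lower). The median log2 fold change over the 9 was 0.06, and over all genes tested 0.00.

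Other values moved with auranofin in the same AHSC libraries. The stellate or myofibroblast markers summed to 4634 and 4755 FPKM with control and to 4087 and 4153 FPKM with auranofin. Of the 12, 9 had negative fold changes and 3 (Lrat, Timp1 and Reln) positive ones. Only Acta2 (smooth muscle actin) had an adjusted p under 0.05, with a log2 fold change of -0.38 (adjusted p = 0.00719 from limma). Of the 11 macrophage markers tested, Clec4f, a Kupffer cell lectin, rose by 0.27 on the log2 scale (adjusted p = 0.0395 from limma), and 8 had negative fold changes. Of the 9 endothelial markers, Clec4g and Stab2 fell by 0.44 and 0.37 on the log2 scale (adjusted p = 0.0130 and 0.0169 from limma). Fold changes were positive in 5 of the 9 and negative in 4. The 9 summed to 263 and 243 FPKM with control and to 268 and 247 FPKM with auranofin. The 6 neutrophil markers summed to 70.0 FPKM in auranofin replicate 2, and to between 6.18 and 17.6 FPKM in the other 3 libraries. Most of the 70.0 FPKM came from S100a9 with 44.7 FPKM and S100a8 with 23.6 FPKM. The part of the stellate, macrophage, endothelial and neutrophil markers in these results was not tested.

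**Figure D3:**
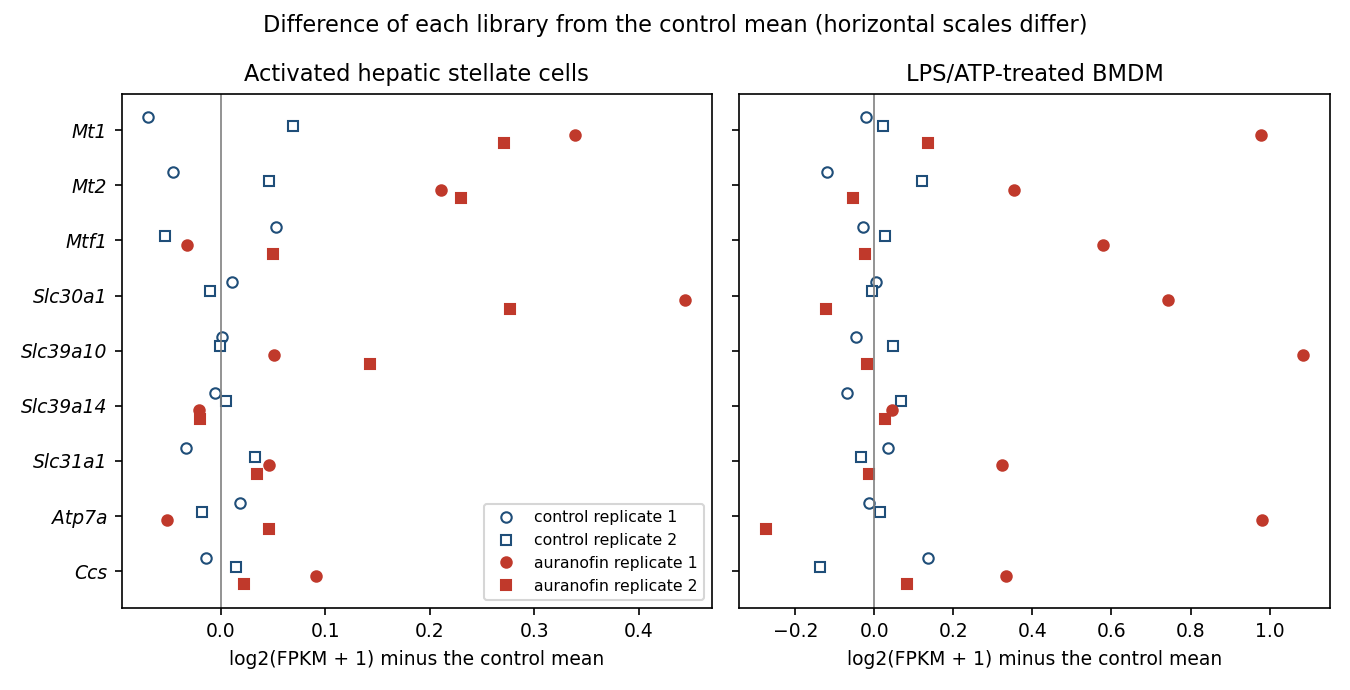
Difference of each library from the control mean of its cell type on the log2(FPKM + 1) scale for the 9 members tested, AHSC on the left and BMDM on the right, with different horizontal scales. In AHSC both filled symbols of Mt1, Mt2 and Slc30a1 lie between 0.21 and 0.44. In BMDM the filled circles (auranofin replicate 1) of Mt1, Slc39a10 and Atp7a lie near 1 and the filled squares (replicate 2) between -0.27 and 0.14.

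In the LPS/ATP-treated BMDM the members tested, apart from Slc39a14, differed more between the 2 auranofin libraries than between auranofin and control. In auranofin replicate 1, Slc39a10, Atp7a, Mt1, Slc30a1 and Mtf1 were 2.54, 2.17, 1.99, 1.75 and 1.61 times their control means in FPKM. In auranofin replicate 2 the same genes were 0.982, 0.792, 1.10, 0.910 and 0.980 times their control means. By limma with Benjamini-Hochberg adjustment over 9232 genes, none of the 9 members tested had an adjusted p under 0.05, and none had an unadjusted p under 0.05 either. Over all genes these calls were made in 0.0108% and 0.531%, while the second rule took in 0.152% of all genes and none of the members. Other genes were split as well. On the log2(FPKM + 1) scale, among 4245 genes averaging 10 FPKM or more, the auranofin libraries were 2-fold or more apart in 383 and the control libraries in 14.

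In BMDM the controls of Mt1 were at 60.5 and 62.4 FPKM, auranofin replicate 1 at 122 FPKM and replicate 2 at 67.6 FPKM. It was the only member tested whose groups did not overlap, beside 38.8% of all genes tested (26.3% higher). The log2 fold change of Mt1 was 0.56, with a 95% confidence interval of -0.32 to 1.43 and an adjusted p of 0.721 from limma. Mt2 had 31.0 and 36.8 FPKM with control and 43.5 and 32.5 FPKM with auranofin. Replicate 1 was above both controls and replicate 2 between them, and the log2 fold change of Mt2 was 0.15 (95% confidence interval -0.39 to 0.69). The Mt1 level was 2.80 times the Mt2 level in auranofin replicate 1 and 2.08 times in replicate 2. Mt3 had 0.104 and 0.203 FPKM with control, about 2 and 3 fragments, and was listed at 0 in both auranofin libraries. A count of 0 allows a level of up to 0.160 and 0.162 FPKM there (3 fragments per library, counting error only), which lies between the control values, and no fold is given from so few fragments.

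For Mtf1 the controls were at 4.02 and 4.22 FPKM, auranofin replicate 1 at 6.65 FPKM and replicate 2 at 4.04 FPKM. Slc30a1 had 9.10 and 9.03 FPKM with control, 15.8 FPKM in auranofin replicate 1 and 8.24 FPKM in replicate 2, which was below both controls. For these genes the log2 fold changes were 0.28 (95% confidence interval -0.39 to 0.94) and 0.31 (95% confidence interval -0.59 to 1.21). The zinc importer gene Slc39a10 had 2.56 and 2.80 FPKM with control, 6.80 FPKM in auranofin replicate 1 and 2.63 FPKM in replicate 2. Its log2 fold change of 0.53 had a 95% confidence interval of -0.60 to 1.66. Slc39a14, the other importer, had 10.2 and 11.3 FPKM with control and 11.1 and 10.98 FPKM with auranofin. Both auranofin libraries of Slc39a14 lay between the controls, replicate 1 included, with a log2 fold change of 0.04 (95% confidence interval -0.28 to 0.36) that was -0.052 after centring on the median.

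Among the copper genes, Atp7a had 4.77 and 4.88 FPKM with control, 10.5 FPKM in auranofin replicate 1 and 3.82 FPKM in replicate 2. The auranofin libraries thus lay on either side of the controls and differed by a factor of 2.74, the widest factor among the members tested. Slc31a1 had 21.0 and 20.0 FPKM with control and 25.9 and 20.3 FPKM with auranofin. Ccs had 8.18 and 6.60 FPKM with control and 9.52 and 7.85 FPKM with auranofin, and its auranofin replicate 2 lay between the controls. On the log2(FPKM + 1) scale, 4 of the 9 members were at least 1.5-fold above the control mean in auranofin replicate 1 (Mtf1, with 0.58, was just short of it on this scale), as were 15.2% of all genes tested, and 0 in replicate 2, as were 0.379% of all genes. Their median difference from the control mean was 0.58 in replicate 1 and -0.02 in replicate 2, beside 0.18 and 0.00 over all genes tested. These per-library differences rest on 1 library each and carry no test.

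**Figure D4:**
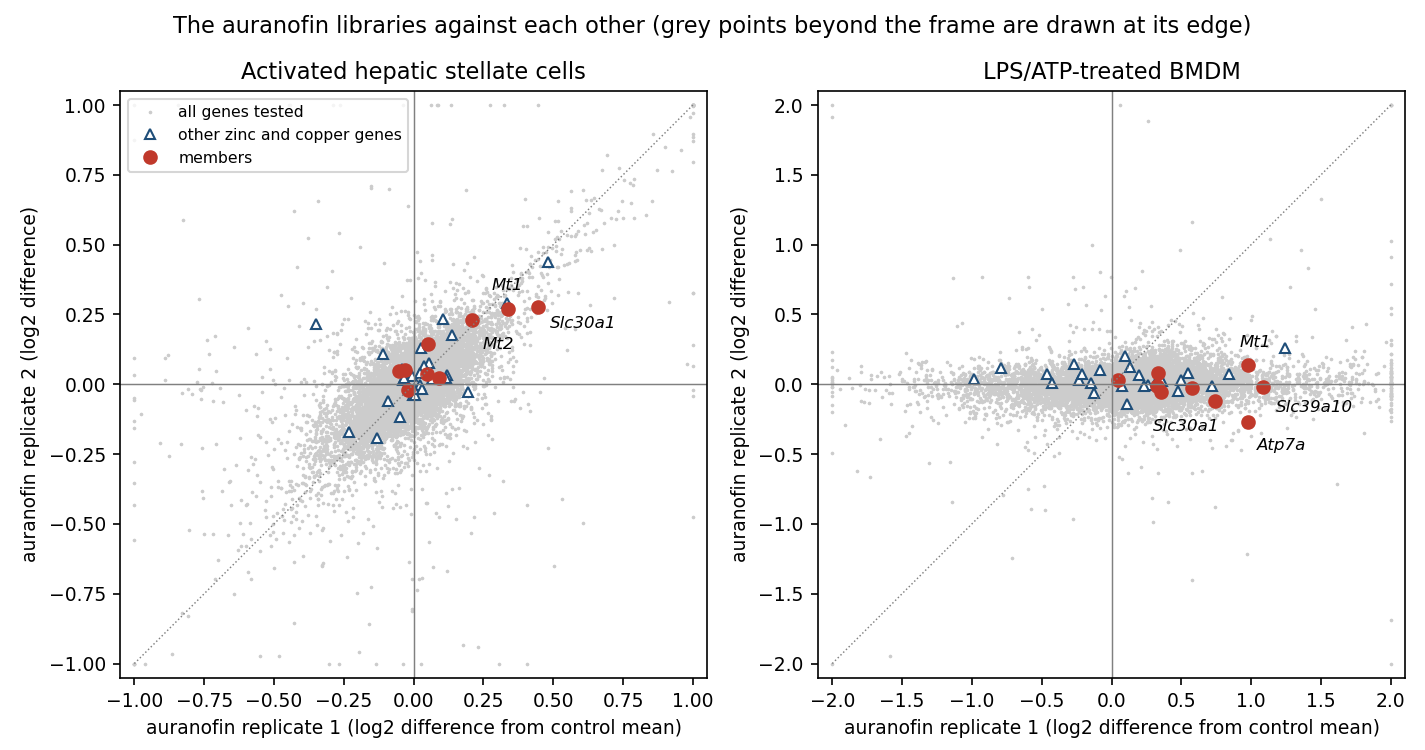
Log2 difference from the control mean in auranofin replicate 2 against replicate 1, for all genes tested (grey), the other zinc and copper genes (blue triangles) and the members (red), AHSC on the left and BMDM on the right. The dotted line marks equal differences. In AHSC Mt1, Mt2 and Slc30a1 lie near the dotted line, and in BMDM the members spread along the horizontal axis, up to 1.08 in replicate 1.

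The rest of zinc and copper handling was read from 39 other genes. In AHSC 29 of them were tested, and 2 rose and 0 fell at an adjusted p under 0.05 by limma with Benjamini-Hochberg adjustment, beside 1.24% and 1.09% of all genes tested. Their median log2 fold change was 0.01, where all genes tested had 0.00. The first of the 2 was Slc39a4, which encodes the zinc importer ZIP4, best known from the intestine. It had 2.1 and 2.19 FPKM with control and 3.39 and 3.26 FPKM with auranofin, a log2 fold change of 0.46 (95% confidence interval 0.30 to 0.62, adjusted p = 0.0306 from limma). The other was Sod1, the copper-zinc superoxide dismutase that CCS loads. Sod1 had 361 and 355 FPKM with control and 451 and 438 FPKM with auranofin, and rose by 0.31 on the log2 scale (95% confidence interval 0.23 to 0.40, adjusted p = 0.0140 from limma). Without auranofin replicate 1 neither gene passed, and without auranofin replicate 2 only Sod1 did. Neither passed when no minimum was set on the level. Slc39a13, which encodes the zinc transporter ZIP13 of the secretory pathway, had the third largest difference. It had 33.8 and 34.0 FPKM with control and 28.7 and 30.02 FPKM with auranofin, with a log2 fold change of -0.20 and an adjusted p of 0.0696 from limma. Of the other zinc exporter genes 5 were tested, and their median log2 fold change was 0.01.

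In BMDM 25 of these genes were tested. None had an adjusted or an unadjusted p under 0.05 from limma, and their median log2 fold change was 0.11, beside 0.09 over all genes tested. The 3 with the largest fold changes again differed between the auranofin libraries. Sco2, a copper chaperone of cytochrome c oxidase, had 1.94 and 1.60 FPKM with control, 5.55 FPKM in auranofin replicate 1 and 2.30 FPKM in replicate 2. Its partner Sco1 had 13.7 and 13.3 FPKM with control, 6.33 FPKM in auranofin replicate 1 and 13.9 FPKM in replicate 2. Sod1 had 162 and 160 FPKM with control, 290 FPKM in auranofin replicate 1 and 170 FPKM in replicate 2. Sco2 and Sod1 were thus higher and Sco1 lower than the controls in auranofin replicate 1.

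**Figure D5:**
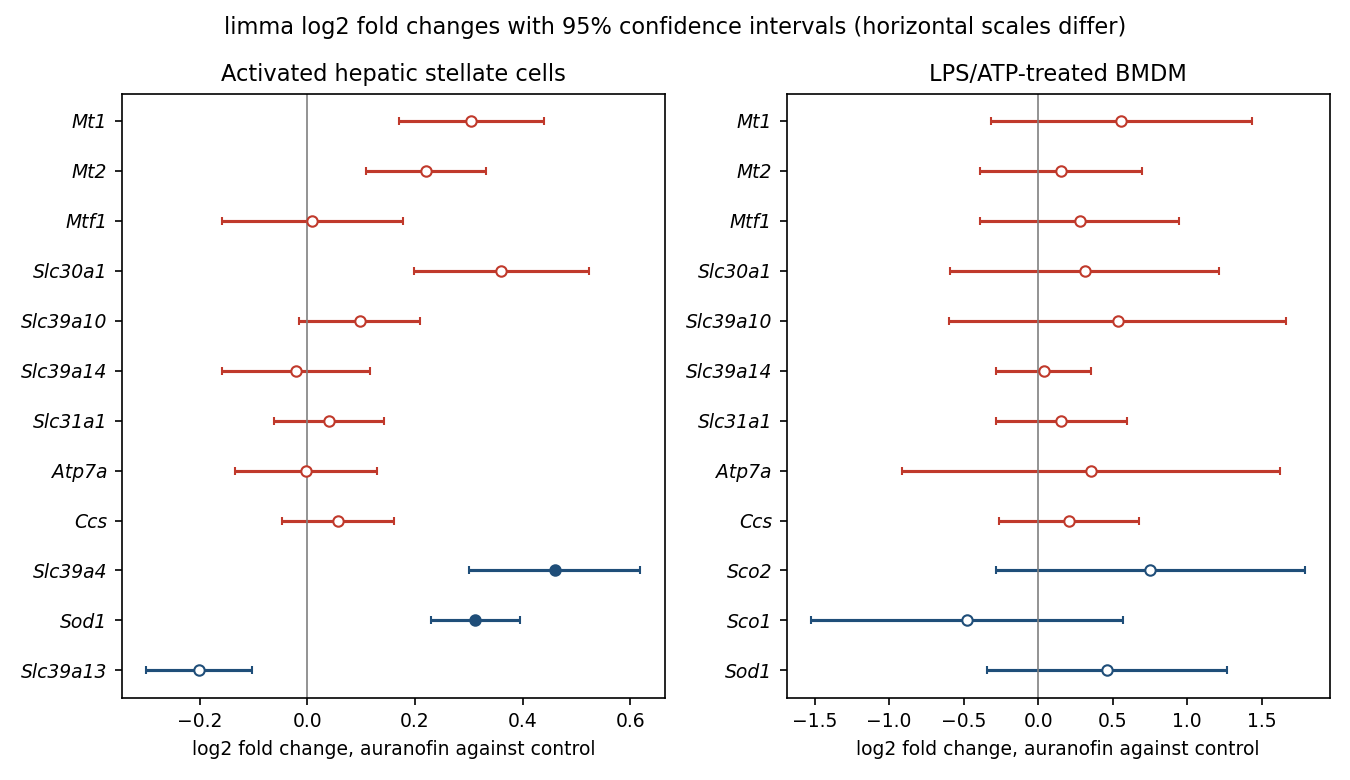
Log2 fold changes of auranofin against control from limma with 95% confidence intervals, for the 9 members tested (red) and the named other zinc and copper genes (blue), AHSC on the left and BMDM on the right with different horizontal scales. Filled points have an adjusted p under 0.05. In AHSC the intervals of Mt1, Mt2 and Slc30a1 lie above 0 with open points, Slc39a4 and Sod1 are filled, and in BMDM every interval includes 0.

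Over the 8 libraries, each taken as its difference from the control mean of its own table, the genes whose pattern lay closest to that of Mt1 were Card19, Psmd3, Homer3, Sod1 and Aldoa, among 8963 genes tested in both tables. Their root mean square distances from Mt1 were between 0.0415 and 0.0709 on the log2 scale. For Mt2 the closest were Pus3, Ethe1, Bckdha, C030006K11Rik and Kif3a, at distances between 0.0376 and 0.0571. No gene was on both lists. In auranofin replicate 1 of the BMDM, where Mt1 stood furthest from its control mean (0.98 on the log2 scale), Card19 stood at 0.97 and Psmd3 at 1.11. This library was among the values used to choose these genes, so their closeness there follows from the choice.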

How the data were processed

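Polyadenylated RNA of 4 AHSC and 4 BMDM libraries was sequenced after a stranded mRNA preparation. The authors deposited FPKM values in 1 table per cell type, made on mm10 with RefSeq transcripts. Their processing notes list Trimmomatic 0.38, HISAT2 2.1.0 and StringTie 1.3.4d, and the settings are not given in the sources used here. Columns were matched to samples by name.

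Each table was fitted alone, since dose, time and normalization differed. Values were taken as log2(FPKM + 1), which understates the change of low genes, and genes averaging 1 FPKM or more were tested in limma 3.58.1 (lmFit, eBayes with trend; R 4.3.3) with Benjamini-Hochberg adjustment over all genes tested. The fit was also run on simulated data with 200 changed genes. The changes set there were larger than those of the members in AHSC, so that run does not bear on differences of their size. Exact permutation tests used scipy 1.17.1. The study names Student's test for comparisons of this kind, and limma was used in its place because it shares the estimate of spread across genes.

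Depth was estimated from values under 0.2 FPKM of genes with 1 transcript, where 1 fragment leaves a step, with GENCODE M21 lengths. Intervals and floors cover counting error only. Coordinates and promoter windows came from RefSeq (GRCm38.p6).

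The members and the gene lists were chosen with earlier results of these data known. Named genes were all members, the other zinc and copper genes called or among the 3 largest log2 fold changes per table, the 5 genes closest to Mt1 and to Mt2, and defining markers. Alternatives were a pseudocount of 0.1, no minimum, a minimum of 5 FPKM, quantile normalization, median centring, the replicate number as a block, eBayes without its trend or no moderation at all, and each library left out. Mt4 and Slc30a8 were in neither table.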

Additional observations from a re-analysis of the deposited data

Results flagged for a closer look

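Mt3 lay above both control libraries in both auranofin libraries of AHSC and below both in BMDM, with mean differences of 0.46 and -0.20 on the log2(FPKM + 1) scale. Whether the cell types differed in this was not tested. Mt3 was below the minimum for a test in both tables, and other genes with opposite directions were not counted. The AHSC value rests on about 4 and 5 fragments with control and about 10 and 18 with auranofin. The BMDM value rests on about 2 and 3 fragments in the control libraries. The values of 0 in the BMDM auranofin libraries allow levels of up to 0.160 and 0.162 FPKM, which lie between the control values.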

How the results depend on the processing

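The count of members with an adjusted p under 0.05 in AHSC, 0 as reported, was 2 (Mt1 and Slc30a1) with a minimum of 5 FPKM and between 0 and 2 with 1 library left out. In that case the lone library of a group is assumed to vary like the others. The 2 other zinc and copper genes called in AHSC became 0 without a minimum and without moderation, 1 (Sod1) with the replicate block and with a minimum of 5 FPKM, which leaves Slc39a4 untested, 1 (Slc39a4) without trend, and between 0 and 2 with 1 library left out. All AHSC genes called went from 283 to 49 without a minimum, 129 without trend, 0 without moderation (1585 had an unadjusted p under 0.05), and between 177 and 493 with 1 library left out. In BMDM 1 gene was called in all, 0 without a minimum, with quantile normalization or without moderation (242 had an unadjusted p under 0.05), 2 without trend, and between 1 and 5997 with 1 library left out. The 5997 came without auranofin replicate 2, when 7 members and 16 other zinc and copper genes were called against 0 without any of the other 3 libraries. With 1 library left out, 6 BMDM log2 fold changes ran from negative values without auranofin replicate 1 to their highest without auranofin replicate 2, from -0.054 to 0.354 for Mt2, -0.024 to 0.578 for Mtf1, -0.122 to 0.744 for Slc30a1, -0.018 to 1.08 for Slc39a10, -0.013 to 0.323 for Slc31a1 and -0.273 to 0.979 for Atp7a. Between the same settings Mt1 ran from 0.135 to 0.978, and Ccs ran from 0.071 without control replicate 2 to 0.345 without control replicate 1. Slc39a14 in BMDM turned to -0.064 with quantile normalization and -0.052 with median centring, and ran from -0.032 (without control replicate 1) to 0.105. In AHSC, Atp7a ran from -0.051 to 0.046, above 0 without control or auranofin replicate 1, and Mtf1 from -0.044 to 0.062, below 0 without control or auranofin replicate 2. The causes were not tested. The deviations of libraries with the same replicate number were little correlated across genes (0.109 in AHSC and -0.0551 in BMDM). With 2 libraries a group this cannot show whether the libraries were paired by animal or culture. With the replicate block 282 AHSC genes and 1 BMDM gene were called, with 0 members in either. Of the 8 members with estimated fragments, Mt3 had 18 or fewer in each library, and none were estimated for Atp7a, Slc39a14 or the other zinc and copper genes.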
